A study of Mus musculus with 18 samples.

Results

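Alternative activation is the state that macrophages enter when interleukin-4 or interleukin-13 binds a receptor containing IL-4Rα and activates the transcription factor STAT6. Classical activation by lipopolysaccharide (LPS), the bacterial ligand of the receptor TLR4, is commonly set against it. In macrophages of the mouse peritoneum the alternative state is known for secreted proteins such as resistin-like alpha and Ym1, for C-type lectins and for a ligand of the inhibitory receptor PD-1.

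The 7 genes described here are Retnla, Chil3, Mgl2, Clec10a, Il4ra, Tgfbi and Pdcd1lg2. They were chosen by their link to alternative activation with earlier FPKM results of the same libraries known, among them the low Retnla values of one mutant. Of these 7, 6 had values under their own Ensembl number, out of 13598 genes with a value, and 4 (Retnla, Clec10a, Il4ra and Tgfbi) were among the 9707 genes tested. Clec10a reached that test through its mock-treated libraries. Their differences are given as a description with standard errors and without p-values.

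The libraries were made from peritoneal macrophages of 3 genotypes, 3 libraries in each of 6 groups: TLR4-WT mice and the mutants TLR4-K730R and TLR4-K810R, each with arginine in place of 1 lysine in the TIR domain of TLR4. FPKM values cannot show this substitution, so the genotype rests on the labels. The mutants were made on a C57BL/6 background with CRISPR/Cas9 guides around exon 3 of Tlr4, and all mice, according to the methods, received thioglycollate before lavage. Hence every group, mock included, held elicited lavage cells without a stated sort. The mutation was present in the whole animal, the age of the mice is not given in the sources used here, and the cells were either mock-treated, which the labels call control, or given 100 ng/ml LPS for 6 h. Neither the labels nor the methods say whether the 3 libraries of a group came from separate animals, so errors and p-values measure only the spread between these libraries. In whole lavage cells, fewer cells of a type and less RNA per cell cannot be told apart.

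The values are FPKM, fragments scaled to transcript length and library size, deposited for transcript events such as first and last exons in 80071 to 90401 rows per library. First-exon FPKM and last-exon FPKM were each summed over a gene, and the greater sum was taken as its value in that library. An event without expression has no row, so a gene listed at 0 may be expressed, and no depth or counting error can be given because the files hold no counts. Differences are log2(FPKM + 1) differences from limma, which understate the change of low genes, and "called" means that the adjusted p fell under 0.01. Where groups are said to overlap or not, 3 libraries a group are compared, and the share of all genes without overlap was not counted. The 6 macrophage markers with a value summed to 11633 to 14785 FPKM in mock-treated and 7289 to 10057 FPKM in LPS-treated libraries, while Itgam, the seventh, had no row under its number and was not analysed here. Libraries of a group correlated at 0.961 to 0.975 over the tested genes. Replicate 3 of LPS-treated TLR4-WT was closest to a TLR4-K730R library (r = 0.970, against at most 0.966 within its group), and replicate 3 of LPS-treated TLR4-K730R was closest to a TLR4-WT library (0.974, against at most 0.966), namely replicate 2 of its LPS-treated group, which was likewise closer to it than to its own group (0.972 at most). Printed values that change in sign or call, or by over 1.5 times, when both replicates 3 are left out are therefore also given without them. Since these libraries were picked after the data were seen for lying near another genotype, leaving them out can by itself widen the differences between genotypes, and a call gained that way is no support.

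Without scaling, the median gene was lower after LPS with log2 differences of -0.28 for TLR4-WT, -0.36 for TLR4-K730R and -0.26 for TLR4-K810R, and scaling the libraries to a common median of ratios raised these medians by 0.26, 0.31 and 0.22. The share of called genes that were higher after LPS went from 30.4%, 26.1% and 31.5% as deposited to 52.0%, 53.1% and 51.3% with scaling. For TLR4-K810R relative to TLR4-WT after LPS the same scaling lowered the median of 0.11 by 0.12. Differences are given as deposited, and the scaled value is added where it changes a sign or a call.

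Promoters of 6 of the 7 genes were found in the RefSeq table of GRCm38.p6, as 300 bases around each annotated start. The promoters of Retnla and Chil3 are shown because these secreted products differed most between the genotypes, in opposite directions. In the Retnla promoter, at chr16:48842359-48842658 on the plus strand, the capitals mark a match to TTC and GAA with 4 bases of any kind between them, the spacing that STAT6 prefers, and a TATAAA. In the Chil3 promoter, at chr3:106167515-106167814 on the minus strand, they mark a match to TTCNNNGAA, the spacing of other STAT proteins, and a TATAAA.
Retnla: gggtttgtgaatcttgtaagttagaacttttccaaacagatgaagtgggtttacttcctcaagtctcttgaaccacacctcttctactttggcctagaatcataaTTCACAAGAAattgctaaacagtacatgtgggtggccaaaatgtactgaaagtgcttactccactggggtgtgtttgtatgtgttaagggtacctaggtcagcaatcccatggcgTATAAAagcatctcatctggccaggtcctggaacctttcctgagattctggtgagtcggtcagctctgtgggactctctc
Chil3: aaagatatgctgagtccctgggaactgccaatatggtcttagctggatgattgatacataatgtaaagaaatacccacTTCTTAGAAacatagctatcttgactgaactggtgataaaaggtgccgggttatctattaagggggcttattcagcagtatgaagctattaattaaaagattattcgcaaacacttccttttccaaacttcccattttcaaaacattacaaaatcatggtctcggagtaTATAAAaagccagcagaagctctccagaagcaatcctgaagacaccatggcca

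The STAT6 match of Retnla, TTCACAAGAA, began 145 bases before the start. Of the other 5 promoters only that of Pdcd1lg2 held the STAT6 motif, as TTCCTCAGAA at 82 bases before the start, and 6.95% of all 32851 promoters of this length held it. The 9-base motif was found among the members only in Chil3, at 172 bases before the start, and in 8.30% of all promoters. TATAAA, searched on the plus strand of each gene, stood 30 bases before the start of Retnla and 3 bases before that of Chil3, and in 8.32% of all promoters. The motif TGANTCA of AP-1 was in none of the 6 and in 7.81% of all promoters. The motifs other than TATAAA read the same on both strands in their fixed letters, so a single search covers both, and a match is a description of letters and not of binding.

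Retnla (ENSMUSG00000061100, chromosome 16, 48842551 to 48844461, plus strand, GRCm38) encodes resistin-like alpha, also known as FIZZ1 or RELMα, a secreted cysteine-rich protein. It was the gene of the 7 that separated the genotypes most, with TLR4-K810R below both other genotypes in every library. In mock-treated TLR4-WT it stood at 33.8, 28.7 and 30.2 FPKM, in TLR4-K730R at 20.99, 16.8 and 15.5 FPKM and in TLR4-K810R at 2.88, 1.28 and 3.42 FPKM. Hence the 3 genotypes did not overlap without LPS, TLR4-K730R lying between the others.

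After LPS the Retnla values were 25.3, 29.5 and 13.4 FPKM in TLR4-WT and 10.6, 13.6 and 30.2 FPKM in TLR4-K730R. These groups overlapped, and the lowest TLR4-WT and the highest TLR4-K730R library were the replicates 3 that stood nearer the other genotype over all genes. In LPS-treated TLR4-K810R the values were 3.18, 2.87 and 2.87 FPKM, so all 6 libraries of this genotype lay below all 12 of the others. Ordered by group mean, mock-treated TLR4-WT came first, followed by its LPS-treated libraries, LPS-treated and mock-treated TLR4-K730R, and then both TLR4-K810R groups. Each pair of neighbours in this order overlapped except at the step to TLR4-K810R.

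**Figure D1:**
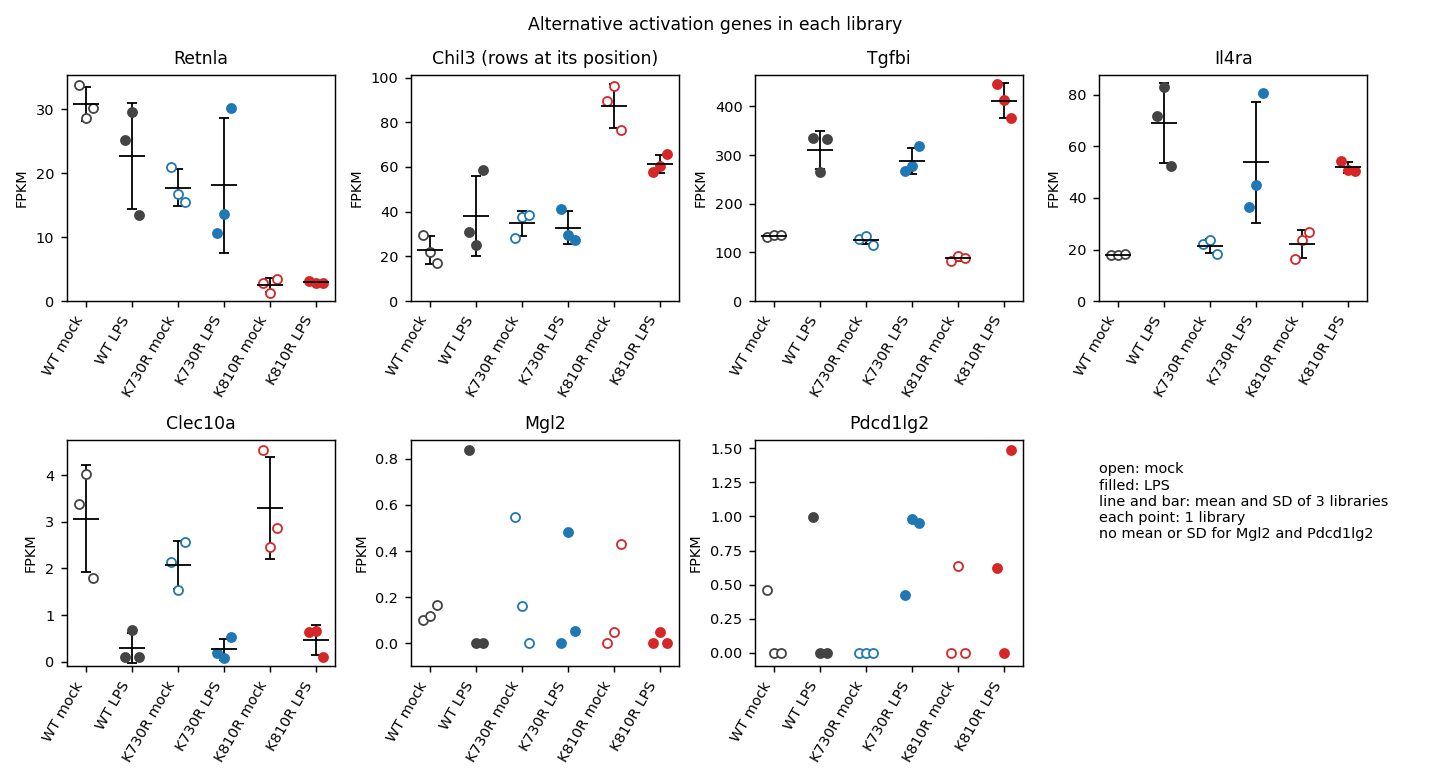
FPKM of the 7 genes (y axis, linear, its own range in each panel) in the 18 libraries by group (x axis; open points mock, filled points LPS; line and bar are the mean and SD of 3 libraries, left out for Mgl2 and Pdcd1lg2). Retnla lies between 1.28 and 3.42 FPKM in the 6 TLR4-K810R libraries, and the other 12 lie between 10.6 and 33.8 FPKM, while the rows at the Chil3 position are highest in mock-treated TLR4-K810R.

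Against TLR4-WT, the Retnla mean was 12.2-fold lower in mock-treated TLR4-K810R (log2 difference -3.23, SE 0.33) and 7.65-fold lower after LPS (-2.51, SE 0.33). With both replicates 3 left out, the difference after LPS was -2.83 (SE 0.23). For TLR4-K730R the log2 difference was -0.77 (SE 0.33) without LPS, with all 3 libraries below, and -0.37 (SE 0.33) after LPS, which became -1.12 (SE 0.25) without both replicates 3. With 1 library left out the latter ranged from -0.80 without replicate 3 of TLR4-K730R to -0.08 without its replicate 1, and it was -0.16 without replicate 2 of TLR4-WT. Neither TLR4-K730R difference was called. The comparisons of both mutants share the TLR4-WT libraries.

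With LPS, no Retnla difference from mock was called. The log2 differences were -0.49 for TLR4-WT, -0.09 for TLR4-K730R and 0.23 for TLR4-K810R (SE 0.33 each), and LPS and mock overlapped in each genotype. The TLR4-K730R value was 0.29 after scaling. The TLR4-K810R value was -0.42 with first-exon sums only, where LPS-treated replicate 2 was at 0, and -0.06 at the lowest with 1 library left out. Without both replicates 3 the differences were -0.17 in TLR4-WT and -0.51 in TLR4-K730R, also not called. The LPS responses differed from that of TLR4-WT by 0.40 in TLR4-K730R and 0.72 in TLR4-K810R (SE 0.47 each), and without both replicates 3 by -0.35 (SE 0.32) and 0.39 (SE 0.31), none of them called. With first-exon sums only the response difference of TLR4-K810R was 0.07, also not called.

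Of the 4 tested members, Retnla and Tgfbi passed the threshold as lower in mock-treated TLR4-K810R. Since these values were known when the genes were chosen, the share of all genes called is printed beside such counts and nothing is read from it. In that comparison 0.649% of all genes were called lower, 0.927% higher and 1.58% in either direction. Retnla alone passed it after LPS, where 0.0824% of genes were called lower, 0.0515% higher and 0.134% in either direction. The 13 genes behind the last share became 366 with library weights and 283 when the TLR4-WT replicate 3 was left out. The Retnla call after LPS was lost with a replicate block, with only the compared groups in the fit, and without any 1 of the compared libraries other than replicate 3 of TLR4-WT, at differences from -2.55 to -2.29. For TLR4-K730R no member was called relative to TLR4-WT. Without LPS 0.0515% of genes were called higher and 0.216% lower, 0.268% in all, and with LPS 0% were called, while limma gave an unadjusted p below 0.05 for 747 and 746 of the 9707 genes.

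Markers of some other cells also differed between the mock-treated groups, while the neutrophil and B cell sums overlapped. The neutrophil list (8 genes) summed to 97.2 to 109, 95.5 to 102 and 98.8 to 114 FPKM in mock-treated TLR4-WT, TLR4-K730R and TLR4-K810R. With LPS its sums were 302 to 383, 290 to 390 and 322 to 347 FPKM. The dendritic cell list, with 6 of its 8 genes listed and Flt3 and Xcr1 without a row, summed to 71.8 to 78.7 FPKM in mock-treated TLR4-WT, 61.8 to 64.2 FPKM for TLR4-K730R and 49.5 to 52.1 FPKM for TLR4-K810R. Clec9a and Dpp4 were listed at 0 throughout mock-treated TLR4-WT, Cd209a throughout mock-treated TLR4-K730R and Clec9a throughout mock-treated TLR4-K810R. The sums of this list therefore rest partly on different genes. The resident peritoneal macrophage list, with all 7 genes listed, summed to 29.2 to 34.4 FPKM, 17.4 to 19.7 FPKM and 17.3 to 27.2 FPKM in the same order. The monocyte list of 4 genes summed to 30.2 to 41.9 FPKM, 30.4 to 33.9 FPKM and 17.1 to 19.7 FPKM. After LPS the sums of TLR4-K810R lay below those of TLR4-WT for resident macrophages (10.7 to 17.8 against 23.1 to 42.9 FPKM) and dendritic cells (29.6 to 34.7 against 35.8 to 38.6 FPKM), while those for monocytes overlapped (209.7 to 353 against 321 to 476 FPKM). The part of these cells in the Retnla difference was not tested. Eosinophil markers, which mark another source of such proteins, summed to at most 2.79 FPKM in any library, with Ear1, Epx, Il5ra and Prg2 without a row.

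Markers of neighbouring tissues also differed. Intestinal epithelial markers (8 genes listed) reached no more than 0.670 FPKM in sum in mock-treated TLR4-WT, where 6 of the 8 were at 0. The mutants without LPS had sums of 42.6 to 69.0 FPKM (TLR4-K730R) and of 53.2 to 113 FPKM (TLR4-K810R). After LPS the sums were 0.0928 to 10.8 FPKM in TLR4-WT, 49.5 to 57.5 FPKM in TLR4-K730R and, for TLR4-K810R, 0.127 to 20.0 FPKM, with TLR4-K730R highest. Mesothelial markers (6 genes) reached 20.4 to 50.9 FPKM in mock-treated TLR4-K810R and 8.97 to 17.05 FPKM in TLR4-K730R, against 4.33 to 5.87 FPKM in TLR4-WT. Lung epithelial markers (5 genes) had sums of 1.25, 25.0 and 34.7 FPKM, in rising order, in LPS-treated TLR4-K810R, the group with the highest Tgfbi values, and at most 3.94 FPKM elsewhere. Mast cell markers, with 5 of 6 listed and Fcer1a without a row, summed to 4.70 to 5.25 FPKM in mock-treated TLR4-WT and to 0.494 to 2.64 FPKM in the mock-treated mutants. Their part in the values of the 7 genes was not tested.

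The relative Retnlg, which encodes resistin-like gamma and is known from neutrophils, was low. Mock-treated TLR4-WT had 1.10, 2.67 and 2.45 FPKM, and 11 of the other 15 libraries were listed at 0, with at most 0.641 FPKM in the rest. Mock-treated TLR4-K730R had 0.287 FPKM in replicate 1 and 0 in the others, and TLR4-K810R had 0.399, 0 and 0.641 FPKM. Retnlg reached 1 FPKM only in mock-treated TLR4-WT, and values listed at 0 may be missing, so the groups are not compared. The coding sequences of Retnla and Retnlg were 84.2% identical, with a longest identical run of 42 bases, and the third relative Retnlb was listed in only 1 library, of mock-treated TLR4-K810R.

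Chil3 encodes Ym1, a secreted chitinase-like lectin without chitinase activity. No row in the files carried its Ensembl number (ENSMUSG00000040809), but 56 rows carried that of its close relative Chil4, which encodes Ym2. All 56 lay within the span of Chil3 (chromosome 3, 106147554 to 106167564, minus strand) and 0 within that of Chil4 (106201490 to 106219507). These rows are described here as Chil3 by position, an assignment made after the data were seen. The first 90 coding bases of both genes show how close they are, with their 2 differences in capitals.
Chil3: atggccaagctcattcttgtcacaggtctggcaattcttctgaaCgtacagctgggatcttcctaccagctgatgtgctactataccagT
Chil4: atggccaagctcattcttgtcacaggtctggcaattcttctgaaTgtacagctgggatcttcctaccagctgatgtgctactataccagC

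Over 1197 aligned coding bases the genes were 95.3% identical, with an identical run of up to 136 bases, so reads of both genes may be counted together at this position. The first-exon event, from 106167497 to 106167564 at the annotated start of Chil3, was listed in all 18 libraries and gave its value in each.

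**Figure D2:**
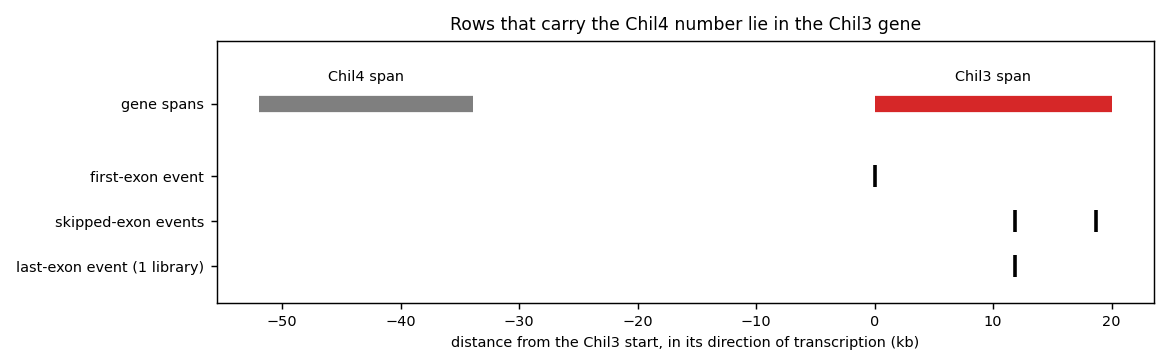
Position of the rows that carry the Chil4 number, as distance in kb from the Chil3 start in its direction of transcription (x axis), below the spans of both genes; ticks mark the middle of an event. Each of the 3 kinds of event drawn lies within the Chil3 span and none in the Chil4 span.

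Mock-treated TLR4-WT had 29.4, 21.9 and 16.9 FPKM at the Chil3 position, TLR4-K730R 28.1, 37.8 and 38.4 FPKM, and TLR4-K810R 89.5, 96.1 and 76.6 FPKM. The TLR4-K810R libraries lay above all others without LPS, while TLR4-K730R and TLR4-WT overlapped. After LPS the values were 30.9, 24.9 and 58.7 FPKM in TLR4-WT, 41.3, 29.7 and 27.6 FPKM in TLR4-K730R and 57.7, 60.5 and 65.8 FPKM in TLR4-K810R. TLR4-K810R overlapped TLR4-WT only through replicate 3 of TLR4-WT, at 58.7 FPKM. Over all genes this library was closest to a TLR4-K730R library, and here it lay above every LPS-treated TLR4-K730R library.

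In mock-treated cells the mean at the Chil3 position was 3.85-fold higher in TLR4-K810R than in TLR4-WT (log2 difference 1.92, SE 0.26), a difference that was called when the position was added to the fit. It was no longer called with only the compared groups in the fit. After LPS the difference was 0.76 (SE 0.26) and not called. It was 1.11 (SE 0.22) without replicate 3 of TLR4-WT, which was the only single removal that took it past the threshold, and 0.51 (SE 0.26) without replicate 2 of TLR4-WT. TLR4-K730R differed from TLR4-WT by 0.61 without LPS and by -0.14 after LPS (SE 0.26 each), neither called. The latter was 0.32 (SE 0.23) without both replicates 3 and 0.21 (SE 0.22) without that of TLR4-WT alone, so its sign rests on this library.

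Between LPS and mock the Chil3 position differed on the log2 scale by 0.66 for TLR4-WT, -0.09 for TLR4-K730R and -0.50 for TLR4-K810R (SE 0.26 each), none of them called. The TLR4-WT value was 0.31 and the TLR4-K730R value 0.02 without both replicates 3. After scaling the differences were 0.98, which was called, 0.31 and -0.23. In TLR4-K810R all 3 LPS-treated libraries lay below the mock-treated ones. The LPS response of TLR4-K810R differed from that of TLR4-WT by -1.16 (SE 0.37), and without both replicates 3 by -0.81 (SE 0.29), neither called. Retnla and Chil3 thus stood at opposite ends between mock-treated genotypes. Over the 18 libraries their log2 values correlated at r = -0.92, a description of points that share genotype, treatment and library. Chil1, a further chitinase-like relative, did not pass 2.68 FPKM in any library, and Chit1 had no row and was not analysed here.

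Clec10a and Mgl2 encode the macrophage galactose-type lectins MGL1 and MGL2, receptors that bind glycans ending in galactose or N-acetylgalactosamine. They lie side by side on chromosome 11, Mgl2 from 70130329 to 70137550 and Clec10a from 70156197 to 70170834 on the plus strand. Their coding sequences were 90.5% identical with an identical run of 183 bases, so reads of one may be counted to the other.

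Clec10a was lower after LPS in every library of the 3 genotypes. The mock-treated libraries had 3.38, 4.03 and 1.80 FPKM in TLR4-WT, 2.14, 1.53 and 2.57 FPKM in TLR4-K730R, and 4.53, 2.47 and 2.87 FPKM in TLR4-K810R. After LPS they had 0.108, 0.677 and 0.1003 FPKM in TLR4-WT, 0.188, 0.0816 and 0.526 FPKM in TLR4-K730R, and 0.645, 0.660 and 0.0948 FPKM in TLR4-K810R. Every LPS-treated library was below every mock-treated one, and the genotypes overlapped on both sides.

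The mean of Clec10a was 10.4-fold lower after LPS in TLR4-WT (log2 difference -1.64), 7.83-fold lower in TLR4-K730R (-1.28) and 7.05-fold lower in TLR4-K810R (-1.54), each with an SE of 0.27. These differences passed the threshold, but since the gene reached 1 FPKM only in mock-treated libraries, the calls are no support for the fall. Without both replicates 3 the first 2 differences were -1.54 and -1.43 (SE 0.30). In 4 of the 9 LPS-treated libraries no first exon of Clec10a was listed, and their values, like that of replicate 3 of LPS-treated TLR4-K730R, came from last-exon events, whose sums in mock-treated libraries were 0.0372 to 1.32 FPKM. A skipped-exon event listed in all 18 libraries, chosen after the data were seen, gave differences of -1.55, -1.32 and -1.12 (SE 0.31), given as a description. Between the genotypes no Clec10a difference was called, the largest being -0.37 (SE 0.27) for mock-treated TLR4-K730R.

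Mgl2 stayed below 1 FPKM in every library and was not tested. Mock-treated TLR4-WT had 0.101, 0.119 and 0.167 FPKM, TLR4-K730R 0.548, 0.164 and 0 FPKM, and TLR4-K810R 0, 0.0507 and 0.429 FPKM. After LPS the values were 0.840, 0 and 0 FPKM in TLR4-WT, 0, 0.484 and 0.0514 FPKM in TLR4-K730R, and 0, 0.0502 and 0 FPKM in TLR4-K810R. Libraries of most groups were listed at 0, which may be a missing value, so the groups are not compared and no fold is given. Of the liver lectins of the same family, Asgr1 was listed at 0 in 5 of the 6 groups and Asgr2 was not analysed here.

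Il4ra (ENSMUSG00000030748, chromosome 7, 125552120 to 125579474, plus strand) encodes IL-4Rα, the chain shared by the receptors for interleukin-4 and interleukin-13. It was called higher after LPS in all 3 genotypes. Mock-treated libraries had 17.7, 17.7 and 18.4 FPKM in TLR4-WT, 22.1, 23.7 and 18.2 FPKM in TLR4-K730R, and 16.2, 23.6 and 26.9 FPKM in TLR4-K810R. With LPS they had 71.7, 82.8 and 52.3 FPKM in TLR4-WT, 36.3, 44.8 and 80.5 FPKM in TLR4-K730R, and 54.1, 50.9 and 50.4 FPKM in TLR4-K810R. All LPS-treated libraries lay above all mock-treated ones, and the genotypes overlapped.

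The Il4ra mean was 3.84-fold higher with LPS in TLR4-WT (log2 difference 1.86), 2.52-fold higher in TLR4-K730R (1.22) and 2.33-fold higher in TLR4-K810R (1.21), each with an SE of 0.24 and each called. The TLR4-K730R call was lost with only the compared groups in the fit. Without both replicates 3 the differences were 2.04 in TLR4-WT and 0.90 in TLR4-K730R (SE 0.18 each), both called. The responses of TLR4-K730R and TLR4-K810R differed from that of TLR4-WT by -0.64 and -0.65 (SE 0.34 each), and neither was called. With 1 library left out these ranged from -0.96 to -0.40 and from -0.85 to -0.50. With both replicates 3 removed these were -1.15 (SE 0.25) and -0.83 (SE 0.24), also not called. Among LPS-treated cells the mutants differed from TLR4-WT by -0.41 and -0.38 (SE 0.24 each), and without both replicates 3 by -0.92 (SE 0.19) and -0.56 (SE 0.18), none of them called. Single removals also shrank them, to -0.17 for TLR4-K730R without its replicate 1 and to -0.24 for TLR4-K810R without replicate 2 of TLR4-WT.

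Tgfbi (ENSMUSG00000035493, chromosome 13, 56609523 to 56639562, plus strand) encodes a secreted matrix protein that TGF-β induces. It had the highest FPKM of the 7 genes. Mock-treated libraries had 132, 136 and 135 FPKM in TLR4-WT, 129, 133 and 116 FPKM in TLR4-K730R, and 82.8, 92.2 and 89.0 FPKM in TLR4-K810R. The TLR4-K810R libraries lay below all others without LPS.

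After LPS, Tgfbi stood at 334, 264 and 332 FPKM in TLR4-WT, 268, 278 and 318 FPKM in TLR4-K730R, and 447, 412 and 377 FPKM in TLR4-K810R. Here TLR4-K810R lay above all others, the reverse of its place without LPS. The TLR4-WT and TLR4-K730R libraries overlapped each other both with and without LPS.

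The Tgfbi mean was 2.31-fold higher after LPS in TLR4-WT (log2 difference 1.19), 2.29-fold higher in TLR4-K730R (1.19) and 4.68-fold higher in TLR4-K810R (2.21), each with an SE of 0.11 and each called. Without both replicates 3 the first 2 were 1.14 and 1.11 (SE 0.11), both called. The response of TLR4-K810R exceeded that of TLR4-WT by 1.02 (SE 0.16), a description of values known when the gene was chosen. It passed the threshold, as did 0.124% of all genes in that comparison, 0.103% in the higher and 0.0206% in the lower direction. The call was lost after scaling (0.96, SE 0.16), with only the compared groups, with a replicate block, and without any 1 of 10 of the 12 libraries, at differences from 0.91 to 1.08, the exceptions being replicates 1 and 3 of LPS-treated TLR4-WT. Without both replicates 3 it was 1.07 (SE 0.15) and called. The response of TLR4-K730R differed by -0.01 (SE 0.16), by 0.07 after scaling and by -0.03 without both replicates 3.

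Between mock-treated TLR4-K810R and TLR4-WT the Tgfbi difference was -0.61 (SE 0.11), called, and lost without any 1 of the 6 compared libraries at -0.56 to -0.64, with only the compared groups and with the replicate block. After LPS it was 0.41 (SE 0.11) and not called, and 0.26 at the lowest under the other settings. The groups did not overlap as deposited. TLR4-K730R differed from TLR4-WT by -0.09 without and -0.10 with LPS (SE 0.11 each), the latter -0.12 without both replicates 3.

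**Figure D3:**
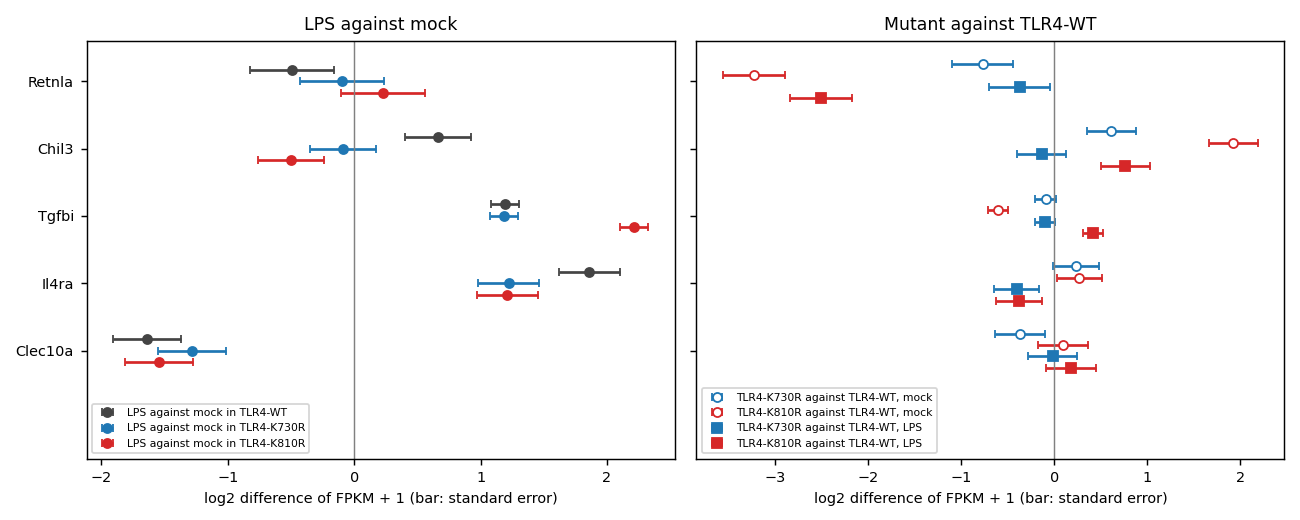
Log2 differences of FPKM + 1 with standard errors (x axis) for the 5 members with enough values (y axis; Chil3 by position), for LPS against mock in each genotype (left) and each mutant against TLR4-WT (right; open circles mock, filled squares LPS). Retnla lies at -3.23 and -2.51 in TLR4-K810R, Il4ra and Tgfbi are above 1 and Clec10a is below -1 after LPS in all 3 genotypes.

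Pdcd1lg2 (chromosome 19, 29410919 to 29471161, plus strand) encodes PD-L2, a ligand of PD-1 that interleukin-4 is known to induce. It had no row, and is listed at 0, in 10 of the 18 libraries and was not tested. Mock-treated libraries were at 0 except 0.462 FPKM in replicate 1 of TLR4-WT and 0.639 FPKM in replicate 2 of TLR4-K810R. LPS-treated libraries had 0.995, 0 and 0 FPKM in TLR4-WT, 0.425, 0.985 and 0.949 FPKM in TLR4-K730R, and 0.620, 0 and 1.49 FPKM in TLR4-K810R. Since a value listed at 0 may be missing, the groups are not compared. Cd274, which encodes the other PD-1 ligand PD-L1, was far higher, at 37.6 to 53.5 FPKM in mock-treated and 307 to 457 FPKM in LPS-treated libraries. It rose with LPS by log2 differences of 3.18, 3.23 and 2.99 in TLR4-WT, TLR4-K730R and TLR4-K810R (SE 0.12, adjusted p in limma 2.05e-11, 1.32e-11 and 3.36e-11). Pdcd1, the receptor, did not exceed 0.0581 FPKM.

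After LPS, Il4ra and Tgfbi were called higher in each genotype, where 10.4%, 9.32% and 9.08% of all genes were called higher in TLR4-WT, TLR4-K730R and TLR4-K810R, and Retnla was called in none. Lower calls were made for 23.9%, 26.5% and 19.7% of all genes, among them Clec10a, which passed the filter on low values only through mock-treated libraries, so its calls are no support. In either direction 34.3%, 35.8% and 28.8% of all genes were called. The LPS response of 0.0412% of genes, no member among them, was called larger in TLR4-K730R relative to TLR4-WT.

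The pathway that leads to these genes was taken as 21 genes of ligands, receptor chains, kinases and transcription factors, of which 13 were tested. The ligand Il13 was listed at 0 in 5 of the 6 groups, from which no level is read. The ligand Il4 and Cebpb, Socs1, Jak3 and Irs2 had no row under their numbers and were not analysed here. With LPS, 3 of the 13 were called higher and 4 lower for TLR4-WT. The counts were 3 and 5 for TLR4-K730R, and 3 and 2 for TLR4-K810R. These stand beside 10.4%, 9.32% and 9.08% of all genes called higher and 23.9%, 26.5% and 19.7% lower. The median log2 difference of the 13 was -0.50, -0.13 and -0.07, beside -0.28, -0.36 and -0.26 over all genes. With scaling, 2 genes were called lower in each genotype. No gene of the list was called between a mutant and TLR4-WT, where 0% to 1.58% of all genes were, so nothing is read from this count. For TLR4-K730R the count of 8 was 5 without replicate 1 of the mock-treated group.

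Among the kinases of cytokine receptors, Jak2 rose with LPS from 4.11 to 7.97 FPKM in mock-treated TLR4-WT libraries to 44.7 to 63.3 FPKM. Its log2 differences were 2.94 for TLR4-WT, 2.69 for TLR4-K730R and 1.97 for TLR4-K810R (SE 0.22, adjusted p in limma 2.55e-08, 6.79e-08 and 2.83e-06). Stat6, the transcription factor that the IL-4 receptor activates, fell from 43.9 to 49.1 FPKM to 22.1 to 24.3 FPKM in TLR4-WT. Its differences were -0.97, -0.97 and -0.82 (SE 0.09, adjusted p in limma 2.26e-07, 1.98e-07 and 1.80e-06).

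Pparg, a nuclear receptor that supports the alternative state, stood at 17.4 to 19.5 FPKM in mock-treated and 0.176 to 0.927 FPKM in LPS-treated TLR4-WT. Its log2 differences were -3.76, -3.64 and -3.09 (SE 0.27). Like Clec10a it passed the filter on low values only through its mock-treated libraries, so its lower calls, counted above in each genotype, are no support and its differences are a description. Kdm6b, a histone H3K27 demethylase, rose by 1.11, 1.52 and 1.21 (SE 0.19, adjusted p in limma 0.00015, 5.87e-06 and 8.01e-05). Il13ra1, which pairs with IL-4Rα in the type II receptor, rose by 1.36 in TLR4-WT (SE 0.26, adjusted p = 0.000437 in limma) and by 0.92 in TLR4-K730R (adjusted p = 0.00781). In TLR4-K810R its difference of 0.62 missed the threshold, and the difference between the responses of TLR4-K810R and TLR4-WT, -0.74 (SE 0.37), was not called (adjusted p = 0.407 in limma).

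**Figure D4:**
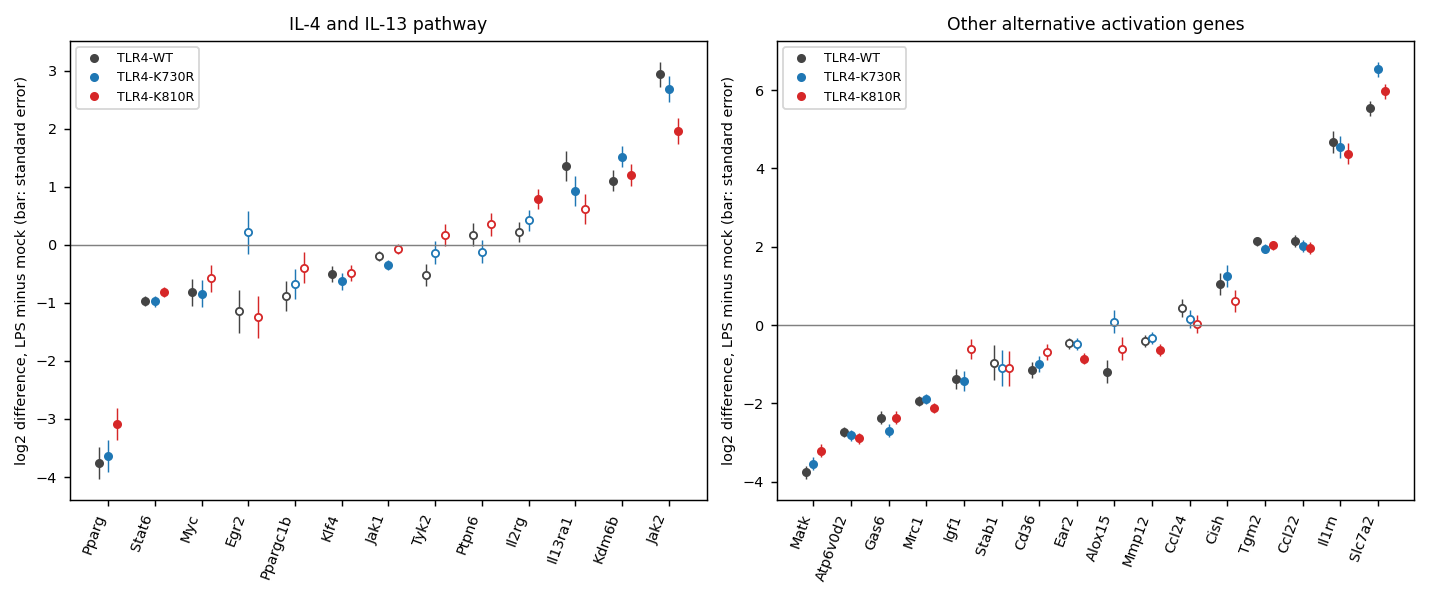
Log2 differences between LPS and mock (y axis, bars are standard errors) of the 13 tested IL-4 and IL-13 pathway genes (left) and 16 of the 17 tested other alternative activation genes (right), ordered by their mean difference, in TLR4-WT (grey), TLR4-K730R (blue) and TLR4-K810R (red); filled points passed an adjusted p of 0.01. Both lists hold genes that rose, such as Jak2 and Slc7a2, and genes that fell, such as Stat6 and Mrc1.

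A second list held 26 other genes known from alternatively activated macrophages, of which 17 were tested. After LPS, 6 were called higher and 7 lower for TLR4-WT. The counts were 6 and 6 for TLR4-K730R, and 5 and 6 for TLR4-K810R. Of all genes, 10.4%, 9.32% and 9.08% were called higher and 23.9%, 26.5% and 19.7% lower. The median log2 difference of the 17 was -0.47, -0.33 and -0.62, beside -0.28, -0.36 and -0.26 over all genes. No gene of this list was called in a mutant against TLR4-WT, with or without LPS, where the same 0% to 1.58% of all genes were, and its median difference for mock-treated TLR4-K810R was -0.24 beside 0.07 over all genes. With scaling 1 gene of the list was called lower in mock-treated TLR4-K810R, beside 68 of all genes.

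Of the genes that rose, Slc7a2, a transporter of arginine, went from 11.8 to 11.9 FPKM in mock-treated TLR4-WT to 543 to 646 FPKM with LPS. Its log2 differences were 5.54, 6.54 and 5.98 (SE 0.19, adjusted p in limma 7.39e-12, 1.31e-12 and 3.37e-12). Il1rn, the interleukin-1 receptor antagonist, rose by 4.68, 4.55 and 4.38 (SE 0.27, adjusted p in limma 1.26e-09, 1.52e-09 and 2.46e-09).

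Of the genes that fell, Mrc1, the mannose receptor, went from 24.4 to 29.6 FPKM to 6.09 to 6.37 FPKM in TLR4-WT. Its log2 differences were -1.95, -1.88 and -2.12 (SE 0.13, adjusted p in limma 5.08e-09, 6.73e-09 and 1.79e-09). Matk, a kinase that phosphorylates Src family kinases, fell, with log2 differences of -3.76, -3.54 and -3.21 (SE 0.17, adjusted p in limma 7.63e-11, 1.07e-10 and 3.65e-10). Atp6v0d2, a subunit of the vacuolar proton pump, fell, with differences of -2.73, -2.82 and -2.89 (SE 0.14, adjusted p in limma 2.85e-10, 1.59e-10 and 1.30e-10). Hence with LPS Il4ra and Tgfbi stood with Slc7a2 and Il1rn among the genes that were higher, and Mrc1, Matk and Atp6v0d2 were among those that were lower. Clec10a and Pparg were lower too, as a description.

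The genes whose log2 values followed each member most closely over the 18 libraries, among tested genes reaching 5 FPKM, are a description of points that share genotype, treatment and library. For Retnla these were Fcna (r = 0.93), which encodes ficolin A, H2-Aa (0.93), an MHC class II chain, and C4b (0.91), a complement component. For Chil3 they were Ccn1 (0.92), Cryab (0.91) and Ube2c (0.90). Il4ra was followed by Ccl2 (0.97), Hdc (0.97) and Carhsp1 (0.97), and Tgfbi by Acp5 (0.98), Icam1 (0.98) and Tmem178 (0.97). For Clec10a they were Coro1c (0.95), Hacd4 (0.95) and Itgb3 (0.95). The nearest genes of Mgl2, which are Mdm4 (0.81), D1Ertd622e and Zfp513, and of Pdcd1lg2, which are Anxa2 (0.73), Tlr6 and Fam241a, rest on values mostly at or near 0. Among the members, Il4ra and Tgfbi correlated at 0.86 and both ran against Clec10a, at -0.84 and -0.88, while Retnla was near 0 with Il4ra (0.02), Tgfbi (0.02) and Clec10a (-0.02).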

How the data were processed

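Each library's file, deposited by the authors, holds FPKM values of 20 kinds of transcript event with a mouse Ensembl number. The aligner, counter and annotation are not given in the sources used here. The submitters' processing notes name hg18, a human build, whereas 14126 of the 14138 Ensembl numbers are in GENCODE M21 of mouse GRCm38, whose coordinates fit. First-exon and last-exon events were summed where strand and position matched the gene (5.99% of their FPKM was dropped), and the larger sum was used. FPKM are normalized to transcript length and library fragments, so a count test was not possible and the precision from depth is unknown.

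Genes reaching 1 FPKM in 3 or more libraries were tested on log2(FPKM + 1), with a pseudocount of 1, in limma 3.58.1 (R 4.3.3), with an intensity trend, all 6 groups in 1 fit and Benjamini-Hochberg adjustment over 9707 genes, and called at an adjusted p below 0.01, which follows the study's methods. The fit was tested on simulated data. Groups follow the labels. The members and lists were chosen with earlier results of these data known. Beside the members, the text names list genes called between genotypes, the 4 largest called LPS differences of each list, Mrc1, Stat6, relatives of members and the 3 genes nearest to each member. Alternatives covered the pseudocount, low-value filter, scaling, library weights, groups in the fit, a replicate block, the summed events and left-out libraries. Chil3 by position, Clec10a by a skipped exon and the joint removal of both replicates 3 were added after seeing the data. Sequences are from RefSeq GRCm38.p6 (promoters) and GENCODE transcripts (longest open reading frames, aligned with Biopython 1.88). Values were summed with pandas 2.3.3 in Python 3.11.15. A gene of this naming rule and a marker are not reported here.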

Additional observations from a re-analysis of the deposited data

Results flagged for a closer look

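The LPS response of Tgfbi is listed for its difference between genotypes, a description, since the gene was chosen with its values known. The log2 rise with LPS was 2.21 in TLR4-K810R and 1.19 in TLR4-WT, a difference of 1.02 (SE 0.16) that passed the threshold in limma. It no longer did after scaling (0.96), with only the compared groups, with a replicate block, and without any 1 of 10 of the 12 libraries (0.91 to 1.08).

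A signal outside the numbers of the members was found in the rows at the Chil3 position that carry the Chil4 number. The lowest mock-treated TLR4-K810R library, at 76.6 FPKM, was above the highest mock-treated TLR4-WT library, at 29.4 FPKM. With 3 libraries a group, no test for an outlying value within a group was run.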

How the results depend on the processing

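The tested members and both gene lists were refitted under 10 other settings, Chil3 by position under 5 of them, and each with single libraries left out. Called member differences kept their sign in all 233 refits, and 30 of these refits lost the call. All 39 changes of sign were in differences not called. Members called between mock-treated TLR4-K810R and TLR4-WT fell from 2 to 1 with only the compared groups, with the replicate block and in each leave-one-out fit (1 to 1). After LPS the count fell from 1 to 0 with only the compared groups and with the replicate block, and ranged from 0 to 1 with a library left out. For the TLR4-K810R response it fell from 1 to 0 with scaling, only the compared groups and the replicate block, and ranged from 0 to 1. The pathway count for LPS in TLR4-K730R was 8, 4 with only the compared groups and 5 to 7 with a library left out. Other alternative activation genes called in mock-treated TLR4-K810R were 0, and 1 with scaling, library weights, last-exon sums only and all rows of the gene number. For mock-treated TLR4-K730R they were 0 to 1 with a library left out. The pathway count for mock-treated TLR4-K810R was 0, and 1 with last-exon sums only. The numbers of all genes called between genotypes moved more: 153 for mock-treated TLR4-K810R was 27 with only the compared groups and 50 at the lowest with a library left out, and 13 after LPS was 0 with only the compared groups, 366 with library weights, 3 with the replicate block, 8 without a filter or with first-exon sums only, and 283 without replicate 3 of TLR4-WT (1 to 283 over the left-out libraries). For mock-treated TLR4-K730R 26 ranged from 11 (replicate block) to 61 (library weights), and after LPS 0 ranged up to 2. The counts for the LPS responses ranged from 2 to 6 around 4 in TLR4-K730R and from 6 to 37 around 12 in TLR4-K810R. Same-numbered libraries of different groups deviated together at r = -0.32 to 0.10 (45 pairs), and differently numbered ones at r = -0.12 to 0.27 (90 pairs). These values cannot tell whether same-numbered libraries share an animal or a batch. The causes of the changes between settings were not tested. Low genes such as Mgl2 and Pdcd1lg2 cannot be compared, since their values may be missing and not 0.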
